A study of Homo sapiens with 4 samples.

Results

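The glycolysis and hypoxia genes are 36 named genes of the 32973 genes in the deposited table. They comprise 17 enzymes that turn glucose into lactate, 7 carriers and regulators of that route, and 12 other genes known as targets of the hypoxia-inducible factors (HIF). The list was taken by name, with no measured value in the rule, but it was chosen with earlier results of these data known. Counts over the list therefore describe these libraries and are not a test of the list. Each of the 36 genes was found in the table. RNA was sequenced from T24T and UMUC3, 2 human bladder cancer cell lines. T24T is a variant of the T24 line. Each line carried, by stable transfection, either an empty vector or a plasmid that overexpresses BCUC-1, the circular RNA hsa_circ_0001361. The groups were thus T24T with vector, T24T with BCUC-1, UMUC3 with vector and UMUC3 with BCUC-1, each with 1 library. All of them grew in RPMI-1640 medium with fetal bovine serum and antibiotics, and the labels name no low-oxygen treatment. Whether the transfected cells were clones or pools is not given in the sources used here. The labels give the purpose as a screen for genes that BCUC-1 regulates.

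Glycolysis splits glucose into pyruvate in the cytosol, and lactate dehydrogenase reduces pyruvate to lactate, which leaves the cell through monocarboxylate carriers. Many cancer cells run this route fast even with oxygen present. When oxygen is low, the HIF alpha subunits escape hydroxylation by the EGLN enzymes and degradation through VHL, pair with ARNT and bind DNA at hypoxia response elements. Most of the glycolytic enzymes and the other genes described here have been described as HIF targets.

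The libraries held 22730112 to 26497894 reads assigned to genes, and 26385 to 26808 genes had a read in a given library. Levels are reads per kilobase of exons per 1000000 assigned reads (RPKM), a scale on which genes of different length can be compared. Both lines expressed the epithelial keratin KRT8, at 133 and 146 RPKM in T24T and 13.0 and 13.2 RPKM in UMUC3. KRT5, CDH1, EPCAM, GATA3 and the uroplakins were at or under 1.03 RPKM in every library. Of 14 epithelial and urothelial markers, 5 reached 1 RPKM in a T24T library and 4 in a UMUC3 library. Of 4 mesenchymal markers (VIM, FN1, CDH2 and ZEB1), 4 did so in T24T and 3 in UMUC3. The measured leukocyte, endothelial, fibroblast and erythroid markers were under 1 RPKM except CD68, a lysosomal protein, at 7.45 and 6.78 RPKM in T24T and 119 and 124 RPKM in UMUC3. Mitochondrial genes took 3.92% and 3.84% of reads in the T24T vector and BCUC-1 libraries, and 6.33% and 5.30% in those of UMUC3.

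The core of the hypoxia response element is ACGTG or GCGTG. It was searched on both strands of RefSeq promoters (GRCh38.p14), from 250 bases before to 50 bases after the start, for the 31 genes with an entry. At least 1 match was found in 22 of these 31 promoters, which is 71.0%, against 48.4% of all 35116 promoters of that length. ACGTG alone was found in 13 of the 31, against 21.4% of all promoters. By set, the core was found for 12 of 17 enzymes, 3 of 5 carriers and regulators, and 7 of 9 other targets. A match describes these letters only, and it is neither a bound site nor a cause of a level. The promoters of SLC16A3, PFKP, HK1, TPI1, PFKM, PGAM1, EGLN3, PDK1 and P4HA2 held no match in this window. The 6 windows below are on the plus strand, 5′ to 3′, with 1 match each in capitals (CACGT and CACGC are ACGTG and GCGTG read on the other strand). The LDHA, GAPDH and PGK1 windows hold further matches, left in lower case or overlapping the capitals. They are shown because CA9 was near 0 in these cells, LDHA, GAPDH and PGK1 are abundant enzymes, and PFKFB3 and ADM differed most between the lines among the genes that held a match.
CA9: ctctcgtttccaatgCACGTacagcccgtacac
LDHA: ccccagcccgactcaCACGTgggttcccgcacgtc
GAPDH: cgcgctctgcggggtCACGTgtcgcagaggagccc
PGK1: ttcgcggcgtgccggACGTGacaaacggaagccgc
PFKFB3: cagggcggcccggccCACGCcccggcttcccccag
ADM: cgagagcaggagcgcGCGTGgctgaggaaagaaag
They lie at chr9:35673895-35673927, chr11:18394461-18394495, chr12:6535168-6535202, chrX:78104031-78104065, chr10:6144738-6144772 and chr11:10304957-10304991 in that order. The match in capitals begins 18, 87, 81, 202, 168 and 101 bases before the RefSeq start in the same order.

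A few glycolytic enzymes were among the most abundant transcripts of these cells, and others were not. The 17 enzymes together took 1.58% and 1.62% of reads in the T24T vector and BCUC-1 libraries, and 1.16% and 1.30% in those of UMUC3. ENO1, the main enolase, was the highest, at 997 and 1020 RPKM in T24T (vector, then BCUC-1) and 746 and 796 RPKM in UMUC3, and stood at rank 17 to 24 among protein-coding genes. GAPDH stood at rank 29 to 47, LDHB at 31 to 35 and PKM at 49 to 99, while HK1 stood at rank 2281 to 4631 and PFKL at 4621 to 7002. The median level over the 12 other targets was 3.21, 3.57, 4.98 and 5.10 RPKM in the same order of libraries. CA9, the membrane carbonic anhydrase that is among the best known HIF targets, had 1, 2, 0 and 4 reads. EGLN3, a HIF prolyl hydroxylase that HIF itself induces, had 18, 19, 0 and 1 reads. A count of 0 allows up to 3 reads within counting error. The EGLN3 counts of both T24T libraries lay above that limit, at about 0.1 RPKM, and the CA9 counts were too few to order the libraries. SLC2A3, the neuronal-type glucose carrier, had 22, 33, 46 and 41 reads. The processed SLC2A3P1 copy had 1058, 1090, 754 and 729 reads, and it lies wholly within PANK3 exons on the same strand, so its reads cannot be told apart from those of PANK3.

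**Figure D1:**
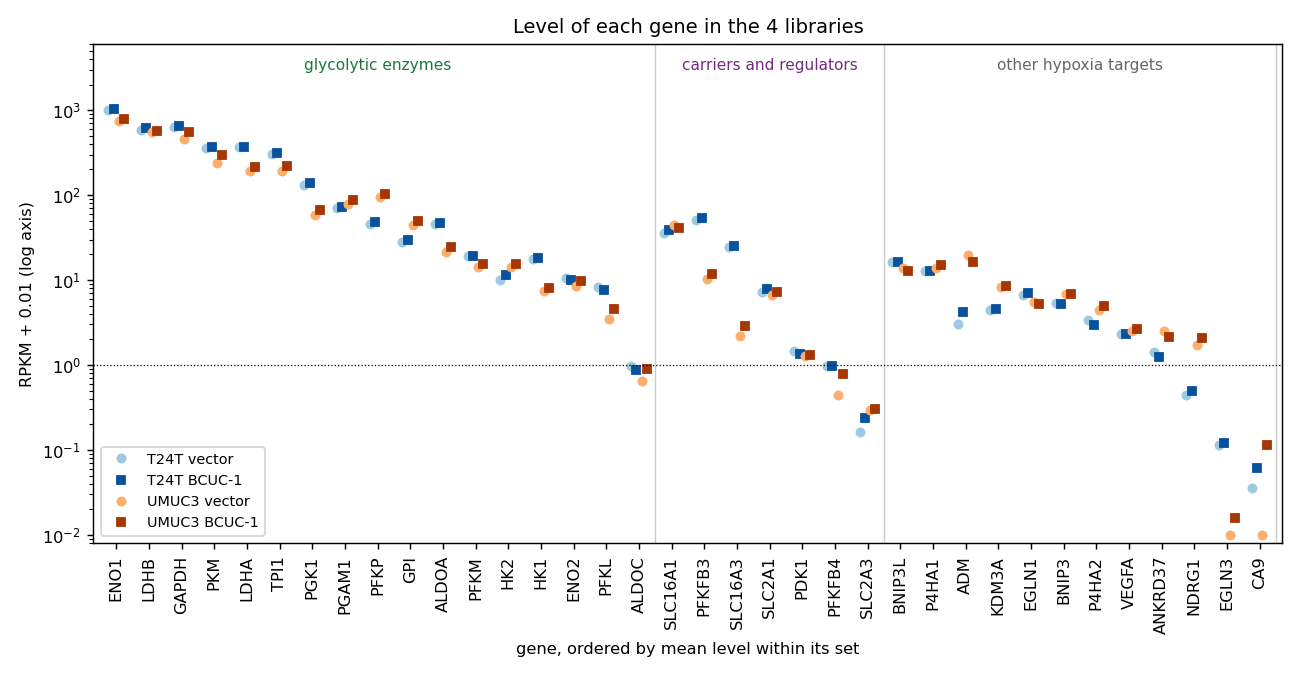
Level of each of the 36 genes in the 4 libraries, as RPKM + 0.01 on a log axis, with genes ordered by mean level within their set. Each point is 1 library, and the dotted line marks 1 RPKM. ENO1 is the highest, and CA9 and EGLN3 lie at the bottom, with both at 0 RPKM in UMUC3 vector.

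T24T and UMUC3 differed in many of these genes. On the log2(RPKM + 1) scale, the largest differences lay in SLC16A3, a lactate carrier gene, in PFKFB3, a regulator of phosphofructokinase, and in ADM. The lines were compared with limma on log2(RPKM + 1), with the plasmid as a second term, over the 15415 genes that reached 1 RPKM in at least 2 libraries. This fit has 1 residual degree of freedom and borrows the spread from all genes. Its p-values are set against how far the difference between vector and BCUC-1 varied between the lines, not against a spread between replicates. Of the 36 genes, 31 passed the floor, and ALDOC, SLC2A3, PFKFB4, CA9 and EGLN3 did not. NDRG1 passed it only through UMUC3. At an adjusted p under 0.05, 14 of the 31 were higher and 10 lower in T24T, where 40.8% of all tested genes were higher and 29.6% lower, so the shares lie near the background. With at least a 2-fold difference besides, 4 were higher and 2 lower in T24T, against 10.2% and 7.73% of all tested genes, again near the background. The median line difference of all tested genes was 0.10 on the log2 scale, and scaling the libraries to equal medians brought it to -0.02. The calls then became 9 higher and 12 lower for the 31 genes, and 5276 higher and 5551 lower in place of 6289 and 4558 for all genes. Leaving out 1 library at a time leaves 1 library in a line. The median line difference of the 31 genes then ran from 0.07 to 0.15, beside 0.09 to 0.12 for all tested genes. Fewer genes were called when either T24T library was left out, among the 31 and among all tested genes alike. All 31 differences kept their direction in the vector libraries alone and in the BCUC-1 libraries alone. The fitted line difference is the mean of these 2 differences. How many of all tested genes kept their direction was not counted.

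SLC16A3 (MCT4), the carrier that exports lactate from glycolytic cells, is at chr17:82228397-82261129 on the plus strand. It was at 24.4 and 25.1 RPKM in the vector and BCUC-1 libraries of T24T, and at 2.18 and 2.85 RPKM in those of UMUC3. Both T24T libraries lay far above both UMUC3 libraries, by 11.2-fold with vector and 8.83-fold with BCUC-1, and the log2 difference was 2.88 (SE 0.09, limma adjusted p = 1.86e-06). It shares 482 exonic bases, 5.36% of its length, with CSNK1D on the opposite strand, and reads there cannot be told apart. SLC16A1 (MCT1), the carrier of higher lactate affinity, was at 36.2, 38.5, 44.6 and 40.8 RPKM and was not called (log2 difference -0.19, SE 0.08, limma adjusted p = 0.0612). It was called lower in T24T with equal medians (limma adjusted p = 0.0136), a floor of 5 RPKM (0.0244), quantile normalization (0.0499) and limma-voom (0.00929), and without UMUC3 BCUC-1 (0.0360). SLC16A3 thus gave 40.2% and 39.5% of the RPKM of these 2 carriers in T24T, and 4.65% and 6.51% in UMUC3.

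PFKFB3, which makes fructose 2,6-bisphosphate, the strongest activator of phosphofructokinase, is at chr10:6144934-6235545 on the plus strand. Its level was 50.7 and 53.6 RPKM in T24T vector and BCUC-1, and 10.4 and 11.7 RPKM in UMUC3 vector and BCUC-1. It was 4.88-fold higher in T24T with vector and 4.57-fold higher with BCUC-1 (log2 difference 2.14, SE 0.07, limma adjusted p = 1.86e-06). Its relative PFKFB4, below the floor, had 140, 139, 70 and 107 reads. Of the other regulators and carriers, SLC2A1 (GLUT1), the main glucose carrier of cancer cells, was at 7.31, 7.85, 6.73 and 7.30 RPKM. PDK1, the kinase that holds pyruvate back from the mitochondria, was at 1.44, 1.35, 1.26 and 1.31 RPKM. Neither SLC2A1 nor PDK1 was called, and the sign of both differences, like that of LDHB, turned with equal medians.

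Among the enzymes, 10 of the 16 tested were higher and 4 lower in T24T, beside 40.8% and 29.6% of all tested genes. With equal medians the calls for ENO1, GAPDH and PFKM were lost. The lines differed in the shares of the isozymes at several steps, and at hexokinase also in which one led. HK1, the housekeeping hexokinase at chr10:69269984-69401882 on the plus strand, was at 17.5 and 18.3 RPKM in T24T and 7.38 and 8.02 RPKM in UMUC3 (log2 difference 1.12, SE 0.08, limma adjusted p = 3.16e-05). HK2, the inducible hexokinase of tumours, was at 9.88 and 11.6 RPKM in T24T and 14.4 and 15.4 RPKM in UMUC3 (log2 difference -0.44, SE 0.08, limma adjusted p = 0.00228). HK1 therefore gave 63.9% and 61.2% of the RPKM of the 2 hexokinases in T24T and 33.9% and 34.2% in UMUC3, so the leading hexokinase was HK1 in both T24T libraries and HK2 in both UMUC3 libraries.

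Phosphofructokinase commits sugar to glycolysis. Its platelet form PFKP, at chr10:3066333-3137712 on the plus strand, was at 45.3 and 48.3 RPKM in T24T and 94.5 and 104 RPKM in UMUC3 (log2 difference -1.06, SE 0.06, limma adjusted p = 1.63e-05). The liver form PFKL, at 8.18 and 7.63 RPKM in T24T and 3.50 and 4.54 RPKM in UMUC3, and the muscle form PFKM, at 19.2 and 18.9 against 14.2 and 15.5 RPKM, were higher in T24T. PFKP led in all 4 libraries, with 62.4% and 64.5% of the 3 forms in T24T and 84.2% and 83.8% in UMUC3. For lactate dehydrogenase, LDHA, the form that favours lactate, was at 368 RPKM in both T24T libraries, and at 193 and 217 RPKM in UMUC3 (log2 difference 0.85, SE 0.07, limma adjusted p = 7.26e-05). LDHB, the form that favours pyruvate, was at 590, 617, 552 and 575 RPKM and was not called. LDHB was the higher of the pair in every library, and LDHA gave 38.4% and 37.4% of their sum in T24T and 25.9% and 27.4% in UMUC3.

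**Figure D2:**
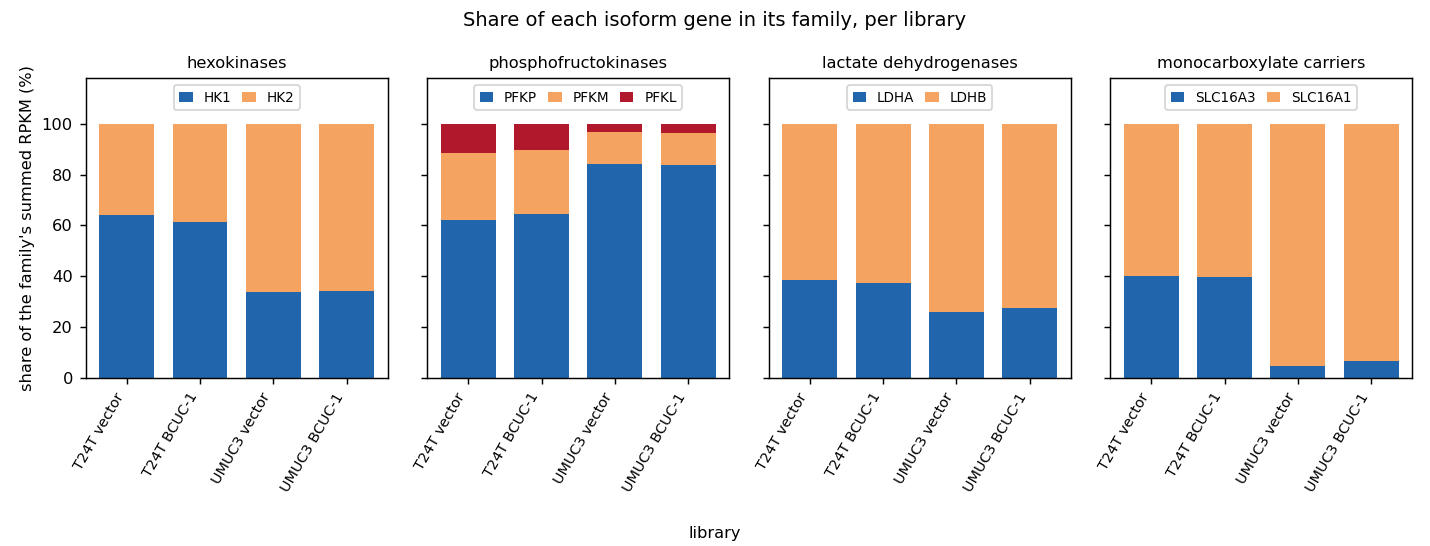
Share of each isozyme or carrier gene in the summed RPKM of its family, in percent, with 1 stacked bar per library. HK1 gives 63.9% of the hexokinase sum in T24T vector and 33.9% in UMUC3 vector, and SLC16A3 gives 40.2% of the carrier sum in T24T vector and 4.65% in UMUC3 vector.

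Most of the steps from aldolase onward were also higher in T24T. PGK1, the first ATP-making enzyme of the route, was at 132 and 141 RPKM in T24T and 59.0 and 67.2 RPKM in UMUC3 (log2 difference 1.10, SE 0.06, limma adjusted p = 1.60e-05). The aldolase ALDOA was at 45.2 and 46.8 RPKM in T24T and 21.2 and 24.5 RPKM in UMUC3, which is a log2 difference of 0.98 that just missed the 2-fold mark. TPI1 (triose phosphate isomerase), PKM (pyruvate kinase), ENO1 and GAPDH were higher in T24T by 0.59, 0.44, 0.39 and 0.35 on the log2 scale. With no filter on low values, the calls of PKM (limma adjusted p = 0.0552) and GAPDH (0.104) were lost. TPI1 was at 305 and 310 RPKM in T24T and 191 and 219 RPKM in UMUC3, and PKM at 355 and 365 against 241 and 292 RPKM. GAPDH, often used as a reference gene, was at 635 and 647 against 455 and 556 RPKM. GPI, which isomerises glucose 6-phosphate, was lower in T24T, at 28.0 and 29.9 RPKM against 44.2 and 48.9 RPKM in UMUC3, as was PGAM1 (phosphoglycerate mutase), at 70.4 and 72.0 against 77.5 and 87.7 RPKM. The call of PGAM1 (limma adjusted p = 0.0296) was lost without T24T vector (0.231), T24T BCUC-1 (0.178) or UMUC3 BCUC-1 (0.0573), with quantile normalization (0.0620) and with no filter (0.108). The neuronal enolase ENO2 was at 10.6, 10.1, 8.46 and 9.79 RPKM and was not called. ALDOC, the brain aldolase, was at 0.966, 0.869, 0.632 and 0.887 RPKM.

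Of the HIF targets outside glycolysis, 2 of the 10 tested were higher and 6 lower in T24T, beside 40.8% and 29.6% of all tested genes. NDRG1, which passed the floor only through UMUC3, is 1 of the 6. ADM, which encodes the vasodilator peptide adrenomedullin, is at chr11:10304680-10307397 on the plus strand. It was at 3.03 and 4.18 RPKM in the T24T libraries, and at 19.8 and 16.3 RPKM in those of UMUC3 (vector, then BCUC-1). Both UMUC3 libraries lay above both T24T libraries, by 6.54-fold with vector and 3.89-fold with BCUC-1 (log2 difference -2.05, SE 0.15, limma adjusted p = 3.97e-05). NDRG1, a stress-response gene, was at 0.43 and 0.48 RPKM in T24T and 1.70 and 2.06 RPKM in UMUC3. Its RPKM was 3.96-fold higher in UMUC3 with vector and 4.30-fold with BCUC-1. On the log2(RPKM + 1) scale, which shrinks such low levels, its difference was -0.98. KDM3A, a histone H3K9 demethylase, was at 4.44 and 4.59 RPKM in T24T and 8.17 and 8.59 RPKM in UMUC3.

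ANKRD37, an ankyrin repeat gene, P4HA2, a collagen prolyl hydroxylase, and BNIP3, a mitophagy receptor, were lower in T24T by smaller amounts, with log2 differences of -0.51, -0.45 and -0.32. ANKRD37 was at 1.41 and 1.25 RPKM in T24T and 2.52 and 2.11 RPKM in UMUC3, P4HA2 at 3.39 and 2.96 against 4.46 and 4.94 RPKM, and BNIP3 at 5.34 and 5.27 against 6.90 and 6.85 RPKM. The 16 BNIP3 pseudogenes held reads equal to 7.91% to 14.0% of those of BNIP3, and how reads were shared between them was not tested. ANKRD37 shares 35.2% of its exonic length with UFSP2 on the opposite strand. The call of P4HA2 was lost with no filter on low values (limma adjusted p = 0.0747). BNIP3L, the relative of BNIP3, and EGLN1, the main oxygen-sensing prolyl hydroxylase, were higher in T24T, with log2 differences of 0.29 and 0.29. Both calls were lost with equal medians, with quantile normalization and with no filter on low values. BNIP3L was at 16.5 and 16.4 RPKM in T24T and 13.9 and 12.7 RPKM in UMUC3, and EGLN1 at 6.61 and 7.01 against 5.50 and 5.26 RPKM. VEGFA, the vessel growth factor, was at 2.31, 2.33, 2.53 and 2.63 RPKM, and P4HA1, the other collagen prolyl hydroxylase, was at 12.8, 12.7, 14.0 and 15.0 RPKM. VEGFA and P4HA1 were not called, but P4HA1 was called lower in T24T with equal medians (limma adjusted p = 0.00927), with quantile normalization (0.0238) and without UMUC3 vector (0.0257). The lines thus did not order the HIF targets in 1 direction, since SLC16A3 and PGK1 were higher in T24T while ADM and KDM3A were higher in UMUC3.

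**Figure D3:**
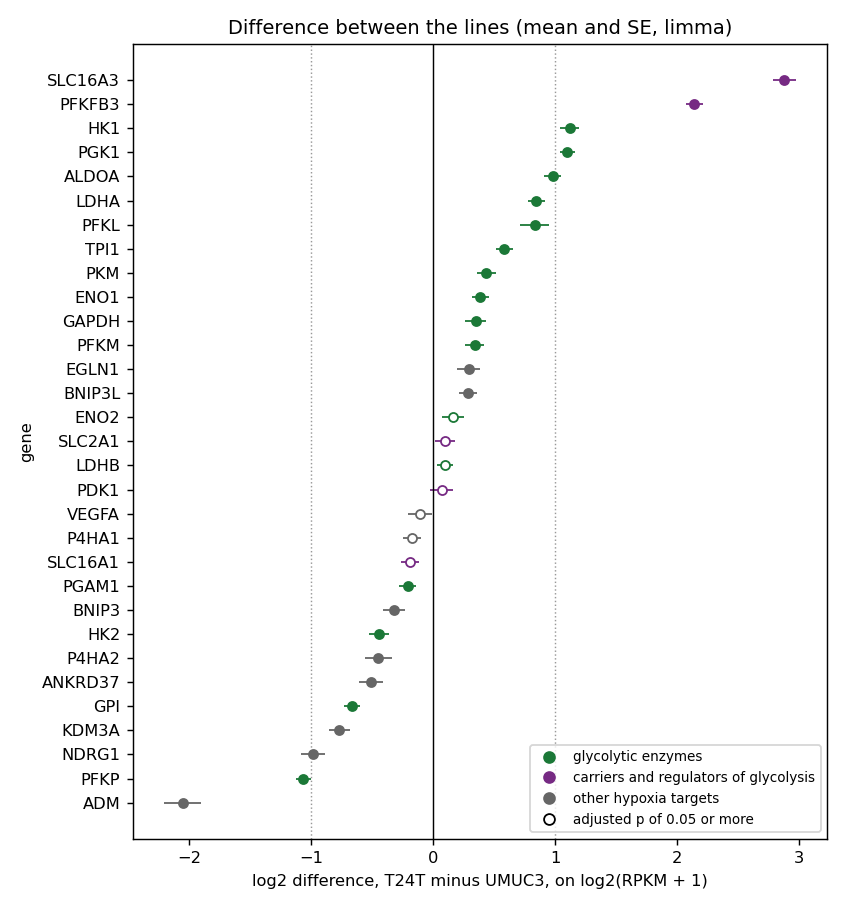
Difference between T24T and UMUC3 on the log2(RPKM + 1) scale for the 31 genes that passed the floor, as the limma estimate with its SE; open points have an adjusted p of 0.05 or more, and dotted lines mark a 2-fold difference. SLC16A3 at 2.88 and PFKFB3 at 2.14 stand at the top, and ADM at -2.05 stands at the bottom.

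Over both lines together, no gene was called for BCUC-1 by limma, so that 0% of the 15415 tested genes passed. Without adjustment, 652 genes had a p under 0.05, 0 of them among the 31, and limma-voom on the recovered reads called 13 genes. The smallest adjusted p of the 31 was 0.998. Within a line there is 1 library per group and hence no test, and what follows compares libraries, not conditions. The ratio of reads per 1000000 in the BCUC-1 library to those in the vector library is given with an exact 95% interval that covers counting error only. No tested gene of the list differed 2-fold within a line, where 0.602% of all tested genes did in T24T and 0.753% in UMUC3.

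In UMUC3 the glycolytic enzymes were all somewhat higher in the BCUC-1 library. All 17 had a ratio above 1, and for the 16 that passed 1 RPKM the interval lay above 1, while the interval of ALDOC, with 49 and 59 reads, ran from 0.945 to 2.09. Of all tested genes in UMUC3, 57.4% were above vector by any amount, 21.0% had an interval above 1 and 14.9% had one below 1. Where the pair of libraries held 1000 reads or more, these last shares were 28.9% and 23.0%. The sum over the enzymes was 1.12 times the vector value (95% interval 1.12 to 1.13), and their median log2 difference was 0.17, against 0.03 for all tested genes. GAPDH, at 455 RPKM with vector and 556 with BCUC-1, had a ratio of 1.22 (95% interval 1.21 to 1.24). PKM, at 241 and 292 RPKM, had a ratio of 1.21 (1.20 to 1.23), and PFKL a ratio of 1.30 (1.18 to 1.43). ENO1 and LDHB had the smallest ratios among the abundant enzymes, 1.07 (1.06 to 1.08) and 1.04 (1.03 to 1.06).

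The difference between the UMUC3 libraries moved with GC content over all genes. Its median was -0.14 in the lowest of 20 GC bins and 0.17 in the highest, against -0.03 and -0.02 in T24T. With that trend removed, the enzyme median in UMUC3 fell from 0.17 to 0.10, beside 0.00 for all tested genes, and all 16 remained above 0. With the intervals shifted by the trend, 10 of the 16 lay above 1 and 0 below, where 13.8% of all tested genes lay above 1. The 6 whose interval then held 1 were HK1, HK2, PFKP, PFKM, ENO1 and ENO2. With equal medians, 13 of the 16 lay above 1, and over all tested genes 2157 lay above and 2870 below 1, in place of 3013 and 2138. LDHA was at 0.17 before and 0.18 after, while PFKL went from 0.30 to 0.13 and HK2 from 0.10 to 0.03. The share of mitochondrial reads also differed between these libraries, and its part in the result was not tested. GAPDH shares 422 exonic bases with RP5-940J5.9 on the opposite strand, and reads there cannot be told apart.

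**Figure D4:**
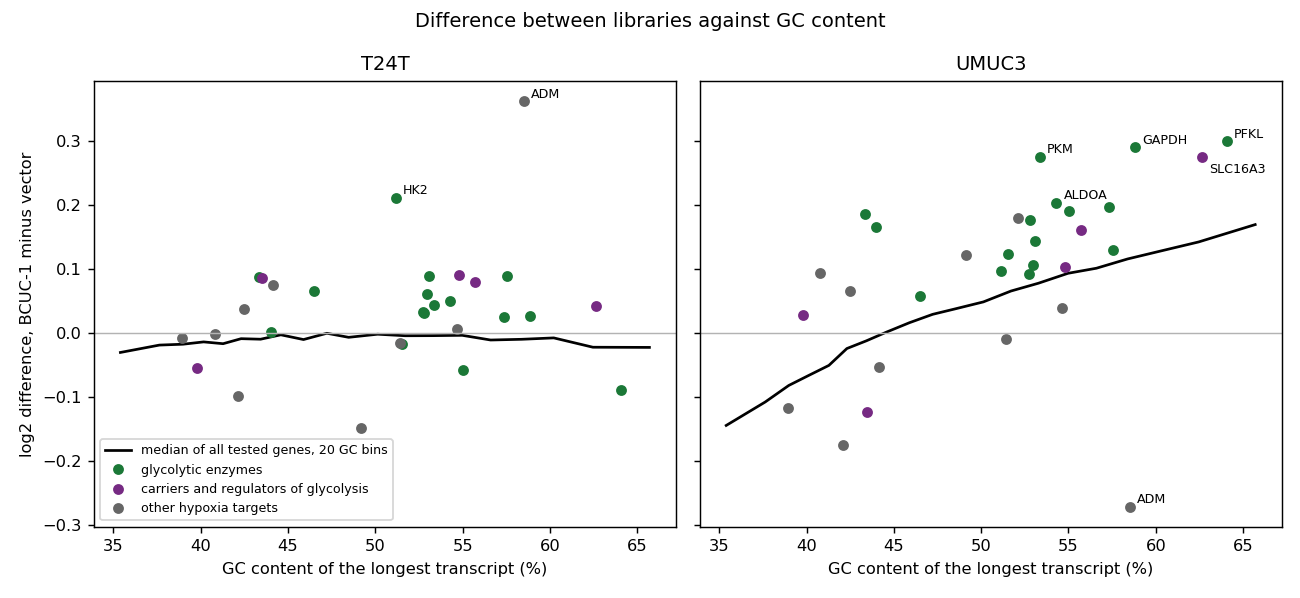
Log2 difference between the BCUC-1 and vector libraries against GC content of the longest transcript in percent, with T24T on the left and UMUC3 on the right. Points are genes of the list that passed 1 RPKM, and the line is the median of all tested genes in 20 GC bins, which rises from -0.14 to 0.17 in UMUC3.

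In T24T the enzymes differed less between the libraries. The sum had a ratio of 1.03 (95% interval 1.02 to 1.03), and the median log2 difference was 0.04, against -0.02 for all tested genes. Of the 16 tested, 13 were higher and 3 lower, with the interval above 1 for 9 and below 1 for 1. Among all tested genes in T24T, 43.4% were above vector, 5.41% had an interval above 1 and 9.98% had one below 1, and where the pair held 1000 reads or more these last shares were 8.72% and 12.3%. With equal medians, 13 of the 16 enzymes had an interval above 1 and 0 below, while the shares of all tested genes became 10.9% and 5.63%. HK2 stood apart from the other enzymes, at 9.88 RPKM with vector and 11.6 with BCUC-1, with a ratio of 1.17 (1.09 to 1.26). GAPDH, PKM and LDHA had ratios of 1.02, 1.03 and 1.00 there.

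The carriers and regulators did not move as a block. SLC16A3 had a ratio of 1.31 in UMUC3 (1.16 to 1.47), from 519 and 582 reads, and 1.03 in T24T (0.992 to 1.07). Its log2 difference in UMUC3 went from 0.28 to 0.13 with the GC trend removed. PFKFB3 had ratios of 1.06 in T24T (1.02 to 1.09) and 1.13 in UMUC3 (1.05 to 1.21). PFKFB4 had a ratio of 1.78 in UMUC3 (1.31 to 2.44) and 0.997 in T24T (0.782 to 1.27), at under 1 RPKM in every library. SLC2A1 and PDK1 had intervals that held 1 in both lines. SLC16A1 had a ratio of 1.06 in T24T (1.02 to 1.11) and 0.915 in UMUC3 (0.882 to 0.950). The summed ratio of the 7 genes was 1.05 in T24T (1.03 to 1.07) and 0.997 in UMUC3 (0.968 to 1.03). SLC16A1, with 6281 and 4932 of the 9803 and 8384 reads of the set in UMUC3, weighs most in that sum. By gene, 4 of the 5 tested were higher in each line, beside 43.4% of all tested genes in T24T and 57.4% in UMUC3. Their median log2 difference was 0.08 in T24T and 0.10 in UMUC3.

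The 12 other HIF targets summed to ratios of 1.01 in T24T (0.980 to 1.04) and 1.00 in UMUC3 (0.974 to 1.03). ADM was higher with BCUC-1 in T24T, with 195 and 268 reads and a ratio of 1.38 (1.14 to 1.67), and lower in UMUC3, with 1428 and 1004 reads and a ratio of 0.820 (0.755 to 0.889). P4HA2 had ratios of 0.873 in T24T (0.781 to 0.976) and 1.11 in UMUC3 (1.01 to 1.21). In UMUC3, BNIP3L had a ratio of 0.916 (0.850 to 0.987) and NDRG1 one of 1.21 (1.06 to 1.38). VEGFA, BNIP3, EGLN1, ANKRD37, P4HA1 and KDM3A had intervals that held 1 in both lines. In T24T, 4 of these targets were higher and 5 lower, which became 7 and 2 with equal medians and 6 and 3 with the GC trend removed. The share of all tested T24T genes that were higher moved as well, from 43.4% to 54.9% and 49.0% in these settings.

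Set side by side, 10 of the 30 genes tested in both lines had intervals above 1 in both, against 1.97% of all genes tested in both, or 10 of 27 against 3.52% where each pair held at least 1000 reads. They were ALDOA, ENO1, GAPDH, GPI, HK2, LDHB, PFKFB3, PFKP, PGK1 and PKM, so that 9 of the 10 are enzymes. The interval narrows as reads rise, so genes with many reads enter this count at small ratios. ENO1 in T24T, for example, had a ratio of 1.02 (1.01 to 1.03). With the GC trend removed the count was 8 of 30, against 1.61% of genes, with ENO1, HK2, PFKP and PFKFB3 lost and SLC16A3 and TPI1 gained. With equal medians it was 12 of 30, against 2.76%. None of the 30 had an interval below 1 in both lines. Intervals on opposite sides of 1 were found for ADM, P4HA2, PFKL and SLC16A1, which is 4 of 30 against 3.75% of all genes, or 3 of 27 against 5.87% with at least 1000 reads. With equal medians or with the GC trend removed, only ADM and SLC16A1 of these 4 kept intervals on opposite sides of 1. That is 2 of 30, against 4.78% of all genes with equal medians and 3.61% with the GC trend removed. A difference between the lines in the response cannot be tested, since the interaction leaves no residual degree of freedom.

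**Figure D5:**
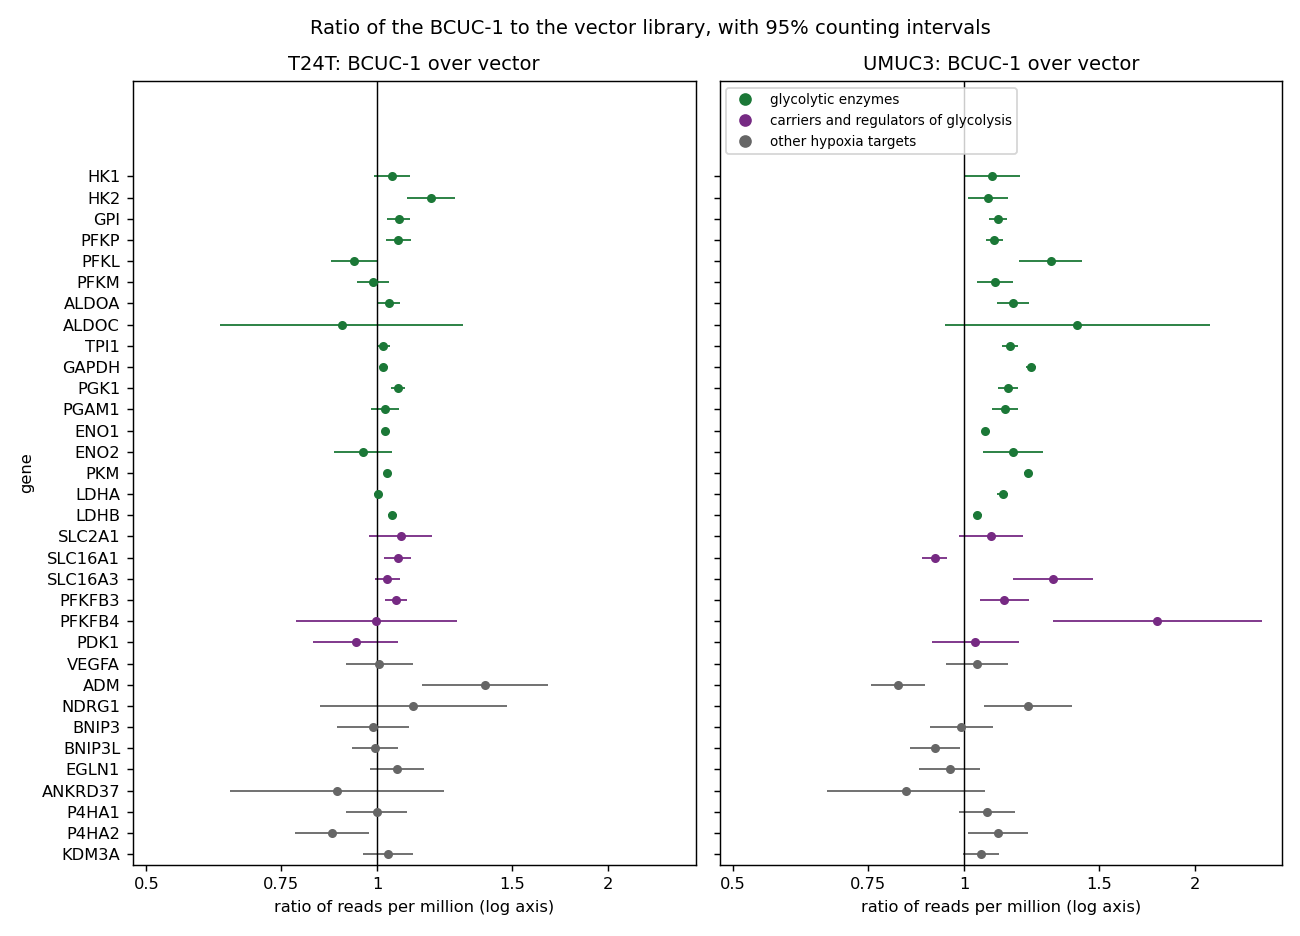
Ratio of reads per 1000000 in the BCUC-1 library to those in the vector library on a log axis, with 95% counting intervals, for T24T on the left and UMUC3 on the right; SLC2A3, EGLN3 and CA9 are left out for their few reads. In UMUC3 the enzyme points lie above 1, and ADM lies at 1.38 in T24T and 0.820 in UMUC3.

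The genes around the pathway were taken from lists of related genes, and none of them was called for BCUC-1. Of 11 tested HIF subunits and regulators, 4 were higher and 5 lower in T24T, beside 40.8% and 29.6% of all tested genes. HIF1A, the oxygen-regulated subunit, was at 37.3, 38.4, 31.7 and 28.9 RPKM, and EPAS1 (HIF-2 alpha) at 1.31 and 1.60 RPKM in T24T and 4.74 and 4.25 RPKM in UMUC3 (log2 difference -1.17, SE 0.11, limma adjusted p = 0.000145). ARNT2, a partner of the alpha subunits, was at 1.81 and 1.60 RPKM in T24T and near 0 in UMUC3, and passed the floor only through T24T. Of 19 tested further hypoxia targets, 7 were higher and 6 lower in T24T, beside the same shares. The carbonic anhydrase CA12 was at 0.02 and 0.03 RPKM in T24T and 10.3 and 12.9 RPKM in UMUC3. BHLHE40, a transcriptional repressor, was higher in T24T, at 18.8 and 15.5 against 2.99 and 2.97 RPKM. CA12 passed the floor only through UMUC3.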

How the data were processed

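RNA was extracted with a column kit and sequenced on standard Illumina libraries, per the labels' protocols, from 4 libraries, 1 in each group. The authors deposited RPKM per gene and, of unit other, the exonic Length in bases per gene, per the file headers. The submitters' processing notes name Bowtie 0.12.2. Not given in the sources used here are its role, the counter, the genome build, the annotation, and the handling of strand and of reads with several matches. Of 22720 symbols with a single GENCODE 29 gene, 96.4% share a start or end with it, so gene coordinates are those of the table, on GRCh38.

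RPKM times length rises in even steps within a library. The step, taken as 1 read, gave the depth, and 100% of values were then whole within 0.001 reads. From these reads, ratios of reads per 1000000 were computed with exact (Clopper-Pearson) 95% intervals. These intervals reflect counting error alone, because without molecular identifiers several reads may come from 1 molecule. limma 3.58.1 in R 4.3.3 was run with an intensity trend on log2(RPKM + 1), two-sided, with Benjamini-Hochberg adjustment over all tested genes, on genes with at least 1 RPKM in 2 libraries. Within a line the floor was 1 RPKM in a library. A fold on the log2(RPKM + 1) scale understates the change of low genes. The fit was also tested on simulated data.

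All 36 genes are named, and other pathway genes by the size of their line difference. The genes, sets and lists were chosen with earlier results of these data known. Alternatives were other pseudocounts, floors, scalings, limma-voom, removal of the GC trend, and leaving out a library. The GC check covers 69.1% of all genes and all 36. Repeated (2) and date-altered (27) names were not used. ERO1L, ELOB, ELOC and PGK2 were not analysed here.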

Additional observations from a re-analysis of the deposited data

Results flagged for a closer look

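The counting intervals of 4 of the 30 genes tested in both lines lay on opposite sides of 1, against 3.75% of all genes tested in both. The difference between the lines was not tested. For SLC16A1, the ratio of BCUC-1 to vector was 1.06 in T24T and 0.915 in UMUC3. For ADM it was 1.38 and 0.820. For PFKL it was 0.933 and 1.30, and for P4HA2 it was 0.873 and 1.11. With equal medians or with the GC trend removed, the intervals of ADM and SLC16A1 stayed on opposite sides of 1, and those of PFKL and P4HA2 did not.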

How the results depend on the processing

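With 1 library per group, no difference within a line has a replicate check. The BCUC-1 fit pairs the libraries by line, and without that block it also called 0 genes, with 11 at an unadjusted p under 0.05. The count of genes called for BCUC-1 was 0 by limma, 1 with a pseudocount of 0.1, 60 with a floor of 5 RPKM, 4 with equal medians and 13 with limma-voom. The line count went from 10847 to 6780 with a floor of 5 RPKM, which tests 8830 genes. Of the 31 tested genes of the list, 24 were called between the lines, 6 when a 2-fold difference was also asked for, a rule added after seeing the data, and 14 to 25 without 1 library at a time. Of all tested genes, 40.8% were called higher and 29.6% lower in T24T, and 10.2% and 7.73% with a 2-fold difference besides. Leaving out either T24T library lowered the number called among all tested genes as well as among the 31. The enzyme median in UMUC3 was 0.10 with the GC trend removed, in place of 0.17. Of the 16 enzymes with intervals above 1 in UMUC3, 10 kept them with the GC trend removed, where 13.8% of all tested genes lay above 1. Of the 4 genes with intervals on opposite sides of 1, 2 kept them with either equal medians or the GC trend removed. The shares of all genes on opposite sides were then 4.78% and 3.61%. These interval checks were added after seeing the data. Within UMUC3, removal of the GC trend moved the log2 difference of 9 of the 31 genes beyond its counting interval, and in T24T equal medians moved 7 of 30. The low reads of CA9, EGLN3 and SLC2A3 limit what can be said of them.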

Other observations

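Genes that feed from or into glycolysis also differed between the lines, with no call for BCUC-1. Of 7 tested genes of the pentose phosphate pathway, which makes NADPH and ribose from glucose 6-phosphate, 4 were higher and 1 lower in T24T by limma, beside 40.8% and 29.6% of all tested genes. RPE was at 29.8 and 30.0 RPKM in T24T and 14.2 and 12.7 RPKM in UMUC3, and TALDO1 at 31.8 and 33.2 against 16.6 and 19.7 RPKM. Of 11 tested genes for the entry of pyruvate into mitochondria, 2 were higher and 5 lower in T24T, beside the same shares of all tested genes. PDK3, 1 of the 2, passed the floor only through T24T. The pyruvate carrier subunits went opposite ways, with MPC2 at 27.1 and 25.8 RPKM in T24T and 12.2 and 12.8 RPKM in UMUC3, and MPC1 at 3.39 and 2.93 against 6.52 and 6.18 RPKM. PDHA1, a subunit of pyruvate dehydrogenase, was at 23.2 and 24.1 RPKM in T24T and 45.7 and 52.2 RPKM in UMUC3.

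Of 6 tested isozymes outside the list, 3 were higher and 2 lower in T24T, beside 40.8% and 29.6% of all tested genes. HKDC1, 1 of the 2, passed the floor only through UMUC3. PFKFB2 was at 6.25 and 6.36 RPKM in T24T and 1.48 and 1.38 RPKM in UMUC3. HKDC1, a further hexokinase, had 0 RPKM in both T24T libraries and 1.31 and 1.29 RPKM in UMUC3. GAPDHS, the sperm form of GAPDH, was at 2.20 and 2.15 RPKM in T24T and 5.44 and 5.91 RPKM in UMUC3. ENO3, the muscle enolase, was listed at 175, 183, 149 and 160 RPKM. Its exons share 111 bases with PFN1 on the opposite strand, and reads there cannot be told apart.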
